A study of Mus musculus with 6 samples.

Results

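The genes described here are 31 genes of the oligodendrocyte lineage and of myelin, taken by symbol from a table of linear transcripts that holds 54787 gene symbols. All 31 were in the table. They comprise 5 precursor genes (Pdgfra, Cspg4, C1ql1, Lhfpl3 and Tnr), 7 genes of maturing cells (Gpr17, Neu4, Bmp4, Bcas1, Enpp6, Tspan2 and Nfasc), 5 lineage transcription factors (Olig1, Olig2, Sox10, Nkx6-2 and Myrf) and 14 myelin genes (Mbp, Mog, Mag, Cnp, Mobp, Cldn11, Ermn, Opalin, Ugt8a, Fa2h, Gjc3, Aspa, Trf and Mal). RNA came from prefrontal cortex of male C57BL/6 mice, which entered the study at 5 weeks of age and were sampled at 30 weeks, and for which the labels give no genetic change. The control group (n = 3 samples) received water, labelled as 0 mg/kg, and the PS_high group (n = 3) received PS NPs, nanoparticles of polystyrene, at 50 mg/kg. Both were dosed by gavage once a day for 6 months. Nothing in the labels says whether a sample is 1 animal, so p-values measure the spread between these samples, which may be technical.

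Oligodendrocytes are the glial cells that wrap axons of the brain and spinal cord in myelin, a stack of lipid-rich membrane that speeds conduction. They arise from precursors that carry the PDGF receptor alpha and the proteoglycan NG2, pass through a premyelinating stage marked by Gpr17, and then switch on the myelin genes. Olig2 and Sox10 act along the lineage, and Myrf drives the last step to myelin gene expression. In adult cortex precursors persist beside mature cells and go on producing new ones.

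The estimated counts of a library summed to between 53344395 and 66004386. Markers of neighbouring tissue varied between libraries of the same group. The 6 choroid plexus genes summed to 15.8 to 471 CPM (counts scaled to library size by TMM factors) in control and to 27.3 to 876 CPM in PS_high, with the lowest sums in control 1 and PS_high 1. All 8 striatal genes were lowest in PS_high 1. The 6 choroid plexus genes all had a log2 difference (PS_high minus control) above 0, with a median of 0.94. None of them had an unadjusted p under 0.05 in edgeR. The 8 tested genes of meningeal and perivascular fibroblasts all had a log2 difference above 0, with a median of 0.37. Of these 8, 1 had an unadjusted p under 0.05 in edgeR, against 2.73% of all genes, and 0 passed an adjusted p of 0.05. In 2 of the 8 every PS_high library lay above every control. Over all genes 7.09% had groups without overlap in either direction. What these tissues contribute to the values below was not tested. The 7 genes listed for Schwann cells, the myelinating cells of peripheral nerve, summed to 93.9 to 153 CPM in control and to 88.9 to 146 CPM in PS_high, nearly all of it Drp2, and 3 of them were tested. Pmp2, a defining marker, had 0 counts in every library. Egr2, a transcription factor that active neurons also express, had 4.58, 2.43 and 5.96 CPM in the controls and 1.88, 2.34 and 1.30 CPM in PS_high, without overlap (log2 difference -1.23, SE 0.39, unadjusted p = 0.0147 and adjusted p = 1.0 in edgeR). In bulk tissue, fewer oligodendrocytes and less RNA per oligodendrocyte cannot be told apart.

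None of the 29 members tested passed an adjusted p of 0.05 in edgeR, where 0.0247% of all 20272 tested genes did. Genes were tested if they averaged at least 0.5 FPKM (fragments scaled to transcript length and library size) over the 6 libraries. At an unadjusted p under 0.05 there was 1 member, Tnr, against 2.73% of all genes. In limma on log2(FPKM + 0.1) there were 2 others instead, Aspa (unadjusted p = 0.0396) and Mal (0.0495), with adjusted p = 1.0 for both. In that limma fit 585 of all 20272 genes had an unadjusted p under 0.05. The CPM of the groups did not overlap in 1 tested member, Bmp4, against 7.09% of all genes. The log2 difference, PS_high minus control, had a median of -0.04 over the 29 members, with 13 above 0 and 16 below, and a median of -0.01 over all genes. For 21 of the 29 members its 95% interval lay within -1 and 1, so that a 2-fold difference lay outside the interval. The standard error had a median of 0.23 and ran from 0.13 for Mbp to 0.91 for Bcas1.

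**Figure D1:**
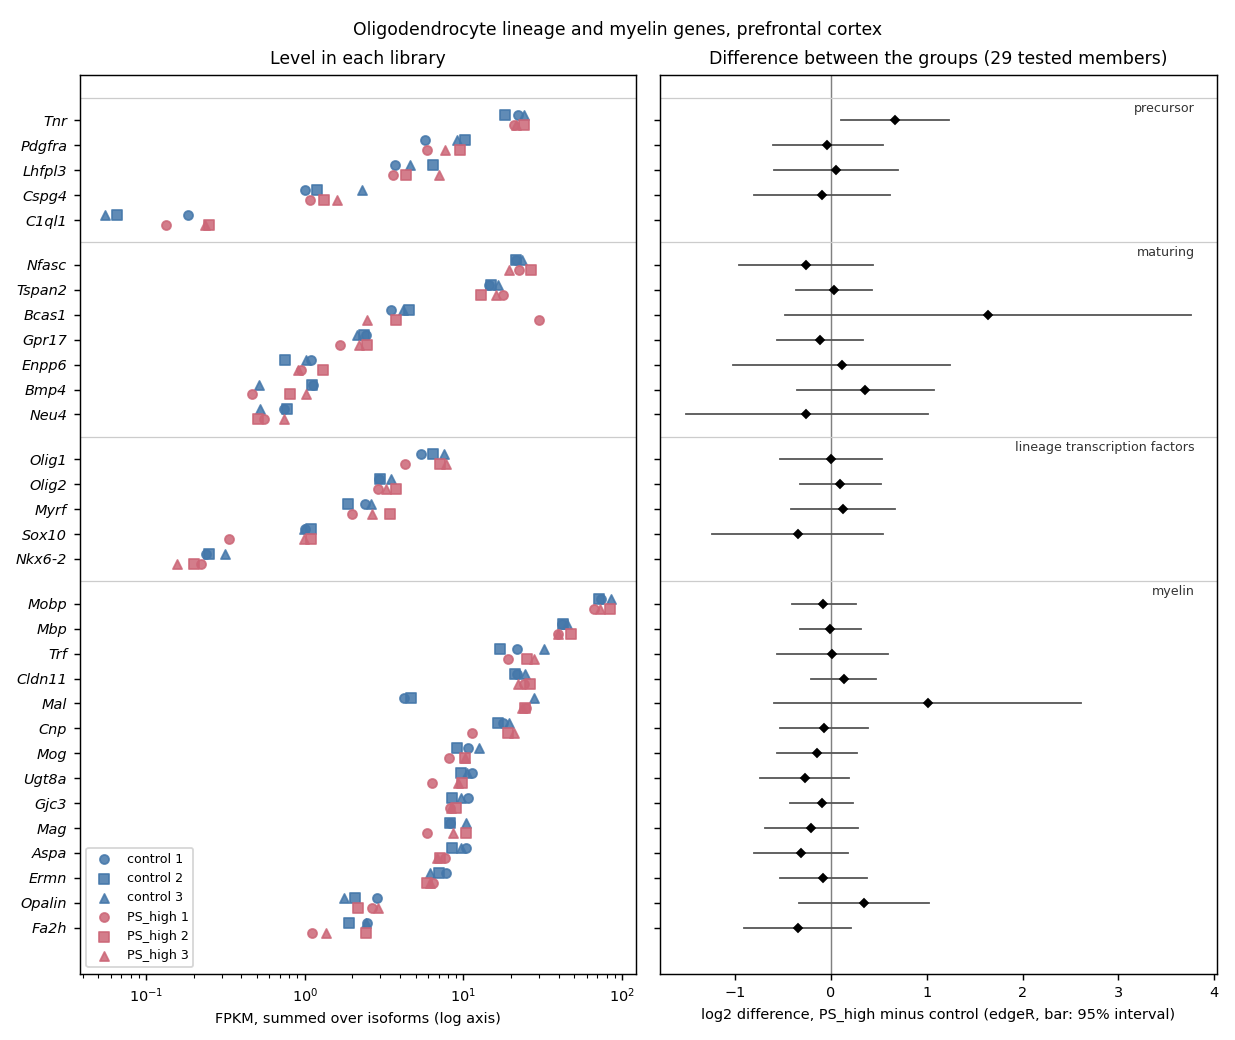
Left, FPKM of the 31 genes in each of the 6 libraries (log axis), blue for control and red for PS_high, with the marker shape giving the sample number. Right, the log2 difference of the 29 tested genes with its 95% interval. On FPKM the groups are apart only for Aspa and Nkx6-2 among the 31, and Bcas1 in PS_high 1 and Mal in control 1 and control 2 lie far from the other libraries.

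Per length of transcript, myelin genes were the highest members. Mobp, which encodes a basic protein of compact myelin, averaged 75.4 FPKM over the 6 libraries and Mbp, the basic protein that holds the inner membrane faces together, 42.7 FPKM. Of Mobp counts, 82.0% in control and 79.8% in PS_high were assigned to ENSMUST00000174193, an isoform annotated as nonsense-mediated decay rather than coding. Trf (transferrin, the iron carrier, 23.8 FPKM), Cldn11 (the claudin of myelin tight junctions, 23.3 FPKM), Nfasc (22.5 FPKM) and Tnr (21.8 FPKM) followed. These 4 lie closer to each other than the libraries of Trf do, which ran from 17.0 to 32.1 FPKM. At the low end stood Bmp4 (0.842 FPKM), Neu4 (0.641 FPKM), Nkx6-2 (0.231 FPKM) and C1ql1 (0.154 FPKM).

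Of the precursor genes, 2 of the 4 tested had a log2 difference above 0 and 2 below, and none passed the threshold. Pdgfra, the receptor through which PDGF keeps precursors dividing, had 47.4, 82.6 and 72.3 CPM in control and 52.2, 79.9 and 65.0 CPM in PS_high. The groups overlapped almost fully, with the lowest value in control 1 (log2 difference -0.04, SE 0.25). Cspg4, the NG2 proteoglycan of precursors and also of pericytes, had 11.0, 12.7 and 14.1 CPM in control and 9.89, 8.15 and 17.3 CPM in PS_high. It had the lowest log2 difference of the 4 tested, -0.10 (SE 0.30), and PS_high held both its lowest and its highest library. Lhfpl3, a tetraspan membrane protein found in precursors, ranged from 17.4 to 27.7 CPM in control and from 17.6 to 30.4 CPM in PS_high. C1ql1, a secreted protein of the C1q family, was below the FPKM minimum. Its CPM were 0.448, 0.160 and 0.128 in the controls and 0.343, 0.561 and 0.520 in PS_high, and in the edgeR fit without that minimum its log2 difference was 0.95 (SE 0.68, unadjusted p = 0.202).

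Tnr, which encodes tenascin-R, a matrix protein made by precursors and by some neurons, had the highest log2 difference among the 4 tested precursor genes. Its CPM were 155, 205 and 139 in the controls and 255, 341 and 193 in PS_high. Of the PS_high libraries 2 lay above all controls and PS_high 3 lay below control 2. The log2 difference was 0.67 (SE 0.24, unadjusted p = 0.0272 in edgeR, adjusted p = 1.0). On FPKM, which divides each isoform by its length, Tnr stood at 21.6 ± 2.89 in control and 22.1 ± 1.71 in PS_high (SD, n = 3 each). With annotated isoforms only, the log2 difference was -0.09. The count difference thus lay in assembled isoforms. One of these, MSTRG.2297.12 (chromosome 1, 159690821 to 159931729, 23 exons, 12032 bases), had 0 counts in all 3 controls and in PS_high 1, and 3400 and 6217 counts in PS_high 2 and PS_high 3.

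Of the 7 genes of maturing cells, 4 had a log2 difference above 0 and 3 below (median 0.03), and none passed the threshold. Gpr17, the orphan receptor that marks premyelinating cells, had 20.1, 18.0 and 16.0 CPM in control and 14.1, 19.0 and 16.7 CPM in PS_high. The lowest library was PS_high 1, and the other two lay inside the control range (log2 difference -0.12, SE 0.19). Bmp4, a ligand that holds back differentiation and is made by cells newly committed to it, had 0.712, 1.08 and 0.929 CPM in control and 1.14, 1.26 and 1.08 CPM in PS_high. The 3 PS_high libraries lay just above the 3 controls, with a log2 difference of 0.35 (SE 0.31, unadjusted p = 0.285 in edgeR). On FPKM the order turned, with 0.917 ± 0.347 in control and 0.766 ± 0.279 in PS_high. Enpp6, a choline phosphodiesterase of newly formed oligodendrocytes, ranged from 1.89 to 7.16 CPM in control and from 4.02 to 7.26 CPM in PS_high. Neu4, a sialidase, ranged from 1.31 to 5.31 CPM in control and from 1.88 to 3.41 CPM in PS_high. The 95% interval of the log2 difference ran from -1.02 to 1.24 for Enpp6 and from -1.52 to 1.01 for Neu4. On CPM a 2-fold difference was therefore not excluded for either. On FPKM both were steadier. Enpp6 stood at 0.957 ± 0.183 in control and 1.06 ± 0.222 in PS_high, and Neu4 at 0.679 ± 0.135 and 0.604 ± 0.125. Tspan2, a tetraspanin of early myelination, was steadier, at 104 ± 5.40 CPM in control and 106 ± 21.0 CPM in PS_high.

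Bcas1, which marks oligodendrocytes in the course of myelinating, had the highest log2 difference of all members, 1.64, and the widest error (SE 0.91, unadjusted p = 0.111 in edgeR). Its CPM were 7.71, 9.15 and 7.67 in the controls and 64.9, 6.40 and 5.26 in PS_high. A single library, PS_high 1, was high, and the other two PS_high libraries lay below every control. Without PS_high 1 the log2 difference was -0.48. In PS_high 1 the assembled isoform MSTRG.23537.6 (chromosome 2, 170347181 to 170370493, 4 exons) held 2748 counts. It held 0, 1 and 3 counts in the controls and 0 in the other two PS_high libraries.

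Nfasc encodes neurofascin, whose glial form anchors paranodal loops to the axon and whose neuronal form sits at nodes and initial segments. It had 219, 263 and 231 CPM in control and 212, 271 and 112 CPM in PS_high. Only PS_high 3 was clearly low, and without it the log2 difference moved from -0.26 to 0.03. The isoforms behind this count were less even. MSTRG.1941.1, an assembled isoform of 29 exons and 16795 bases (chromosome 1, 132564597 to 132710555), had 2773, 9539 and 1895 counts in the controls, against 386, 247 and 85 in PS_high. Every PS_high library lay below every control, and the isoform's share of Nfasc counts was 25.7%, 72.4% and 15.0% in the controls, highest in control 2, and 3.90%, 2.13% and 1.52% in PS_high. Its unadjusted p was 0.00533, the smallest of any member isoform in edgeR, and the adjusted p was 1.0. On FPKM the gene stood at 22.2 ± 1.03 in control and 22.8 ± 3.61 in PS_high.

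Of the lineage transcription factors, 3 of the 4 tested had a log2 difference above 0 and 1 below, and none passed. Olig2, the basic helix-loop-helix factor needed to specify the lineage, had 11.8, 11.0 and 12.9 CPM in control and 11.9, 14.1 and 12.0 CPM in PS_high. All but PS_high 2 lay within the control range (log2 difference 0.09, SE 0.18). Olig1, its close relative, stood at 20.8 ± 2.60 CPM in control and 20.9 ± 5.03 CPM in PS_high. Sox10, the high mobility group factor that activates myelin genes with Olig2 and Myrf, had 3.99, 4.53 and 3.46 CPM in control and 1.52, 4.04 and 3.84 CPM in PS_high. Only PS_high 1 lay outside the control range. The log2 difference was -0.35 (SE 0.38), the lowest of the 4 tested factors. Myrf, the membrane-bound factor that is cleaved to enter the nucleus, had 21.3, 15.7 and 20.4 CPM in control and 15.8, 26.0 and 20.7 CPM in PS_high. It had the highest log2 difference of the 4, 0.12 (SE 0.23), and only PS_high 2 lay above the controls. Nkx6-2, a homeobox factor of myelinating cells, had 0.733, 0.718 and 0.893 CPM in control and 0.707, 0.584 and 0.440 CPM in PS_high. The groups did not overlap but the gene lay below the FPKM minimum, and in the edgeR fit without that minimum its log2 difference was -0.44 (SE 0.40, unadjusted p = 0.306).

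Of the 14 myelin genes, 4 had a log2 difference above 0 and 10 below, with a median of -0.08, and none passed. Mbp had 196, 193 and 194 CPM in control and 205, 206 and 169 CPM in PS_high. The controls lay close together, and the PS_high libraries lay on both sides of them (log2 difference -0.01, SE 0.13). Mobp stood at 293 ± 31.4 CPM in control and 278 ± 23.3 CPM in PS_high. Cnp, a phosphodiesterase of the cytoplasmic channels in myelin, stood at 70.6 ± 9.90 and 67.2 ± 14.1 CPM. Mog, a surface glycoprotein of the outermost layer, stood at 27.4 ± 4.30 and 24.7 ± 1.82 CPM. Cldn11 stood at 62.9 ± 4.49 and 68.8 ± 7.58 CPM. Gjc3, a connexin, stood at 51.2 ± 5.62 and 47.7 ± 0.544 CPM, and Ermn, a cytoskeletal protein of late myelination, at 35.8 ± 7.38 and 33.9 ± 3.42 CPM. Each of these 7 genes had overlapping groups. Trf, which choroid plexus also makes, had 85.2, 59.6 and 114 CPM in control and 74.2, 85.2 and 101 CPM in PS_high, again with overlap, and the part of choroid plexus in these values was not tested.

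Fa2h, which hydroxylates the fatty acids of myelin lipids, had the lowest log2 difference of the myelin genes, -0.35 (SE 0.24, unadjusted p = 0.183 in edgeR). Its CPM were 7.77, 5.09 and 6.40 in the controls and 4.43, 5.70 and 4.98 in PS_high. PS_high 1 and PS_high 3 lay below all controls and PS_high 2 between them. Opalin, a sialylated glycoprotein of myelin, had 9.64, 6.60 and 5.38 CPM in control and 11.1, 6.96 and 9.25 CPM in PS_high (log2 difference 0.34, SE 0.29). Its annotated retained-intron isoform, ENSMUST00000236184, made up 39.9%, 43.2% and 33.6% of Opalin counts in the controls and 81.5%, 43.6% and 44.5% in PS_high. PS_high 1 alone stood far above the rest.

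Mal encodes a proteolipid of lipid-rich myelin membrane and had the highest log2 difference of the myelin genes, 1.01 (SE 0.69, unadjusted p = 0.183 in edgeR). Its CPM were 18.5, 17.7 and 113 in the controls and 106, 99.7 and 94.5 in PS_high. Control 1 and control 2 were low, and control 3 was the highest of all 6 libraries. Without control 3 the log2 difference was 2.47 with an adjusted p of 0.0495 in edgeR, the only member gene called in any setting tried. The other 13 myelin genes lay mostly above their own means in control 1 and mostly below them in control 2, and none of them was as far from its mean as Mal. The coding isoform ENSMUST00000028854 (chromosome 2, 127633226 to 127656695) carried the difference, with 903, 516 and 6199 counts in the controls, against 3384, 4264 and 4728 in PS_high. The 300-base window around its start is shown because this start carries most Mal counts. It is taken from RefSeq (GRCm38.p6), runs from 250 bases before to 50 bases after the start and lies on the minus strand at chr2:127656646-127656945. None of the 3 motifs searched below occurs in it, so it has no capitals.
Mal: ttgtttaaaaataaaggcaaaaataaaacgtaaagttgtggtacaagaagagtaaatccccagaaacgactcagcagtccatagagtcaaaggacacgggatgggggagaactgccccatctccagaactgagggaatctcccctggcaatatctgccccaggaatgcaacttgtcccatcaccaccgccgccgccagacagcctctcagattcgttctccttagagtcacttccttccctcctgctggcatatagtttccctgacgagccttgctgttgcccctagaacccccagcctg

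**Figure D2:**
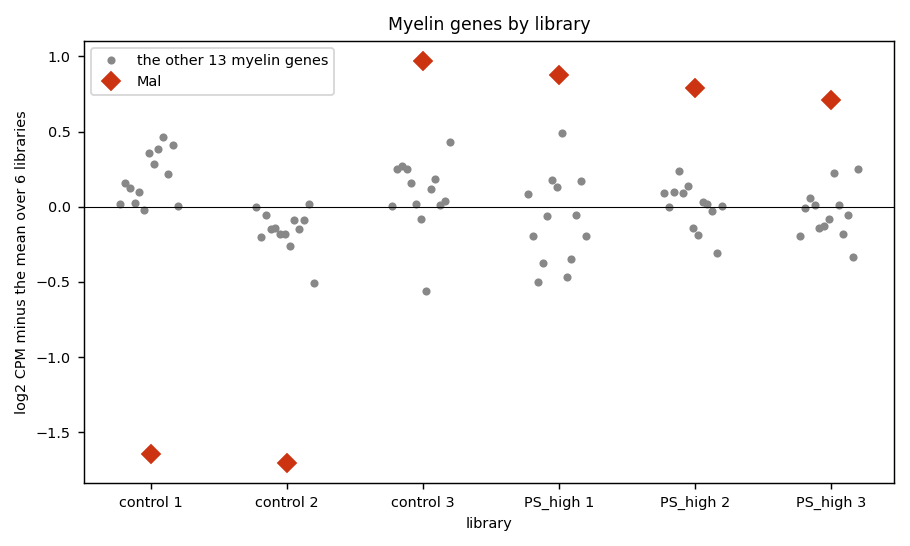
The log2 CPM of the 14 myelin genes in each library, minus the gene's mean over the 6 libraries, with Mal as red diamonds and the other 13 genes as grey points. Mal is far below 0 in control 1 and control 2 and above 0 in the other 4 libraries, while the grey points of control 1 lie mostly above 0.

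Aspa encodes aspartoacylase, which releases acetate from N-acetylaspartate for lipid synthesis. It had 31.4, 23.9 and 24.3 CPM in control and 26.5, 19.1 and 18.7 CPM in PS_high, with PS_high 1 inside the control range. The log2 difference was -0.31 (SE 0.21, unadjusted p = 0.186 in edgeR). On FPKM the groups did not overlap, with 10.5, 8.49 and 9.62 in control and 7.62, 7.17 and 6.82 in PS_high, against 7.01% of all genes whose FPKM did not overlap. Its coding isoform ENSMUST00000021119 (chromosome 11, 73304992 to 73324634) had 1012, 758 and 1044 counts in the controls, against 541, 503 and 494 in PS_high. All PS_high libraries lay below all controls, and its share of Aspa counts was 69.1% in control and 51.4% in PS_high. The log2 difference of the isoform was -0.73 (SE 0.23, unadjusted p = 0.0234 and adjusted p = 1.0 in edgeR). The assembled isoform MSTRG.6344.3 went the other way, with 48, 48 and 26 counts in the controls, against 116, 95 and 83 in PS_high (unadjusted p = 0.00822 and adjusted p = 1.0 in edgeR). The RefSeq window at the start of the coding isoform, chr11:73324588-73324887 on the minus strand, is shown with an E-box (CAGCTG) in capitals.
Aspa: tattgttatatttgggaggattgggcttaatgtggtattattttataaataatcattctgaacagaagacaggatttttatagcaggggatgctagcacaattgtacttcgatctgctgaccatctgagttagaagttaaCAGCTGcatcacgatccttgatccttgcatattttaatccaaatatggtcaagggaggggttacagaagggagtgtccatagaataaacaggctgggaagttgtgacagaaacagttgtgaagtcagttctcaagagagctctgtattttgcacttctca

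Several myelin genes are read from more than 1 start site, and the isoforms allowed these to be counted apart. For Mbp, some isoforms begin at least 79100 bases upstream of the main site, as the golli transcripts of this locus do. They made up 63.7% of Mbp counts in the controls and 65.6% in PS_high. They stood at 124 ± 0.759 CPM in control and 127 ± 19.3 CPM in PS_high. Isoforms that begin at the main site, where the classic myelin forms start, stood at 70.3 ± 2.21 and 66.0 ± 6.28 CPM. Per length the order was reversed, with 24.9 FPKM in control and 23.5 FPKM in PS_high from the main site and 18.0 and 18.1 FPKM from upstream. Exact two-sided permutation tests gave p = 0.7 for the upstream and p = 0.4 for the main isoforms, where 3 against 3 libraries allow no p below 0.1.

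Mag encodes the adhesion protein on the innermost myelin membrane that faces the axon. The gene stood at 28.6 ± 3.21 CPM in control and 24.7 ± 5.30 CPM in PS_high (log2 difference -0.21, SE 0.21), with the lowest library in PS_high 1. Its isoforms begin at an outer and an inner site that lie at least 497 bases apart. The outer site held 61.1% of the pooled counts in control and 62.9% in PS_high. By library it held 77.2%, 69.7% and 41.7% in the controls and 56.7%, 60.7% and 68.7% in PS_high. In control 3 the inner site led, with 58.3%. The RefSeq windows at both sites, on the minus strand at chr7:30914814-30915113 (outer) and chr7:30914272-30914571 (inner), are shown to compare them. Capitals mark the SOX core ACAAAG, read on the other strand as CTTTGT, which occurs only in the outer window.
Mag outer: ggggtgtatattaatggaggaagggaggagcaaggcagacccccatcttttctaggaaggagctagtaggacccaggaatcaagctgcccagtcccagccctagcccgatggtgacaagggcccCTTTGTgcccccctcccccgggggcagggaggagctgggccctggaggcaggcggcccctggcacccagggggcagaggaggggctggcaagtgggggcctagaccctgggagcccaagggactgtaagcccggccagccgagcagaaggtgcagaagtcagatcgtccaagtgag
Mag inner: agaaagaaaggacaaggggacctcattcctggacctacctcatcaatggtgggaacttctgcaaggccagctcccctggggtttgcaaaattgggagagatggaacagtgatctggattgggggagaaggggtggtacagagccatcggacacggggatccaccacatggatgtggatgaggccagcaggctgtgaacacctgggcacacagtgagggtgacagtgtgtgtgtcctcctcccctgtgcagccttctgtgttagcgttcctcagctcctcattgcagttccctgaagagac

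Motifs were counted in the RefSeq windows on both strands. Of the 31 members 22 had a window, 26 windows in all. The SOX core ACAAAG occurred in 7 of the 26 windows, against 18.7% of 32851 windows of the same length. The related core ACAATG occurred in 3 of 26, against 12.6%, and the E-box CAGCTG in 4 of 26, against 16.3%. Either SOX core occurred in the windows of 9 genes, Cnp, Enpp6, Ermn, Mag, Mobp, Olig2, Opalin, Tnr and Tspan2. A match is a string of letters and not a bound site.

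Ugt8a encodes the enzyme that makes galactosylceramide, the characteristic glycolipid of myelin. It had 62.2, 45.0 and 51.9 CPM in control and 34.6, 48.9 and 48.2 CPM in PS_high. PS_high 1 was lowest, and the other two lay inside the control range (log2 difference -0.27, SE 0.20, unadjusted p = 0.210 in edgeR). Isoforms from its outer start site held 10.5%, 17.3% and 7.27% of counts in the controls and 32.4%, 11.2% and 14.8% in PS_high, and the inner site, at least 22666 bases downstream, held the rest. Only PS_high 1 lay above the control range, and the CPM of the outer isoforms gave an exact two-sided permutation p of 0.5. The window of the outer site, chr3:125938603-125938902 on the minus strand, has a GC content of 78.3%, against 39.0% for that of Aspa, and holds none of the 3 motifs.
Ugt8a: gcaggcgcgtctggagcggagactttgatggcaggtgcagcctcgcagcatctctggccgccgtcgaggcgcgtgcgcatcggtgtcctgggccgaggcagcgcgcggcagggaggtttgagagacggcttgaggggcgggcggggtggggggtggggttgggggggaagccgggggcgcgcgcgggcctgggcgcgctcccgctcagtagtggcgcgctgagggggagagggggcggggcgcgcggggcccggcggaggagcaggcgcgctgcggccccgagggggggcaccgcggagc

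**Figure D3:**
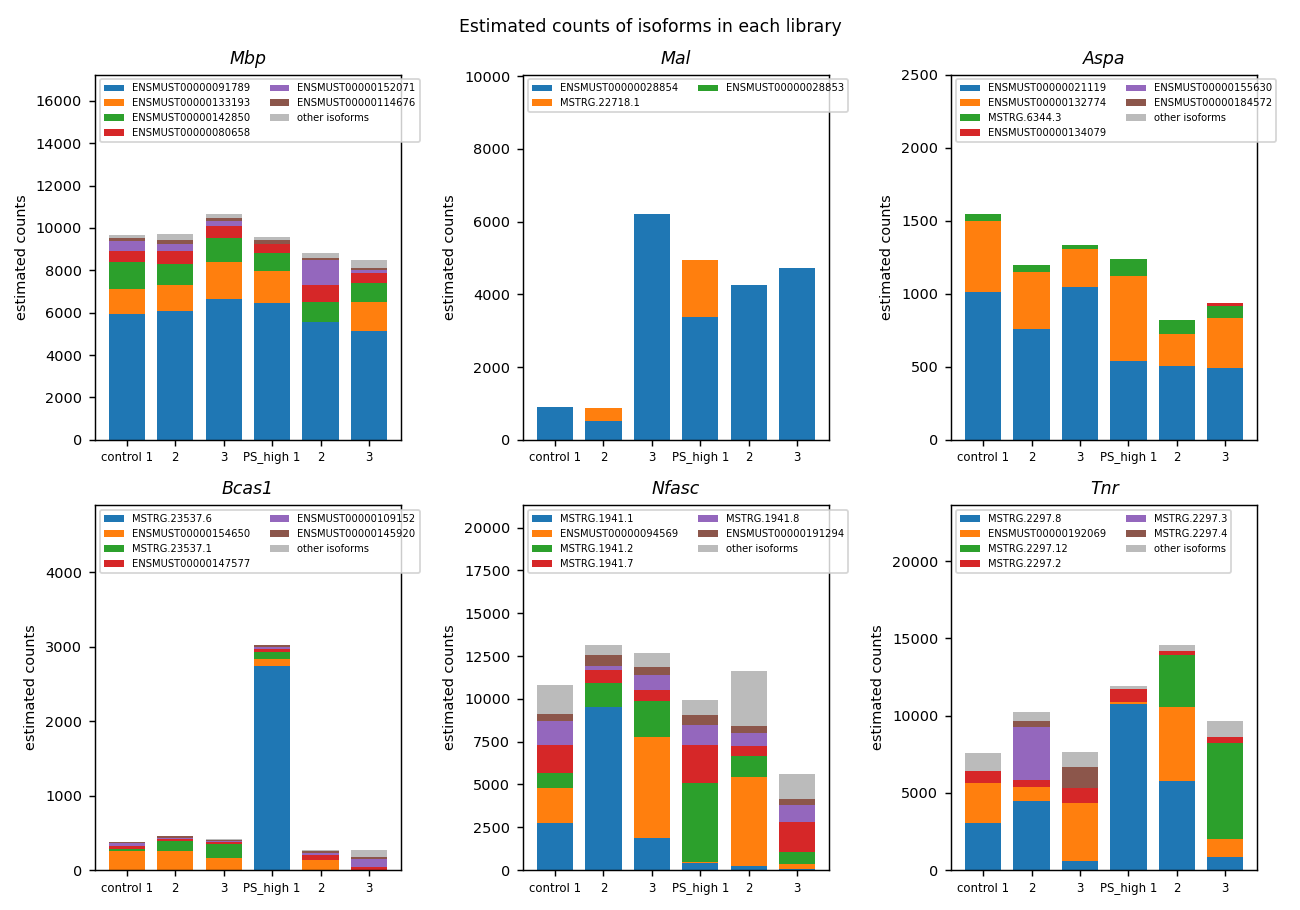
Estimated counts of the isoforms of Mbp, Mal, Aspa, Bcas1, Nfasc and Tnr in each library, as stacked bars with the 6 most abundant isoforms in colour and the rest in grey. The main Mbp isoform is even across libraries, MSTRG.23537.6 fills the Bcas1 bar of PS_high 1 alone, and the leading isoforms of Nfasc and Tnr change from library to library.

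Isoform values were less even than gene values. None of the 82 member isoforms tested passed in edgeR, where 0.00433% of all 69330 isoforms did, and 6 had an unadjusted p under 0.05 against 3.58% of all. Groups did not overlap in 7 of the 82, 3 higher and 4 lower, against 7.87% of all isoforms. The leading isoform was the same in every library for 18 members and differed between libraries for 13. In 12 genes, 19 isoforms had 0 counts in 1 library and at least 100 in another of the same group. Cnp shows this within both groups, where its coding isoform ENSMUST00000103120 had 2359, 1418 and 0 counts in the controls, against 0, 0 and 2547 in PS_high while the gene's CPM ran from 52.5 to 81.1. For Pdgfra, ENSMUST00000168162 had 1533 counts in PS_high 3 and 0 to 8 in the other 5 libraries.

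Circular RNAs, counted by reads over the back-splice that joins their ends, were few for these genes. The 13 circRNAs from 7 member genes held 36 of 109896 back-splice reads, or 0.0328%, while the members held 0.173% of the linear gene counts. They numbered 9, 12 and 8 reads in control and 2, 1 and 4 in PS_high. Most of the difference was in Ugt8a, whose 3 circRNAs had 5, 6 and 4 reads in control and 0 in each PS_high library. With the PS_high group set at 3 counts in all, the difference was 4.35-fold. That value is not a lower bound. It allows for counting error in PS_high alone, and not for that of the control reads or for the spread between samples. The exact two-sided permutation p was 0.1, the smallest that 3 against 3 allows, and the gene was singled out after its values were seen. Of the 1656 host genes with at least 10 back-splice reads, 0.302% had 0 reads in all PS_high libraries, 0.121% had 0 in all controls, and 3.32% were lower in PS_high without overlap. Without Ugt8a the members had 14 reads in control and 7 in PS_high. The most abundant of the 3, mmu_circ_0010433, is a single exon on chromosome 3 (125914638 to 125915461) with 5, 3 and 0 reads in control. Another of the 3, mmu_circ_0010432, had 0, 3 and 0 reads in control and is typed as ciRNA, an intronic circle. The same type is given to ciRNA609 of Nfasc. Of member circRNAs only 1, circRNA632 of Aspa (chromosome 11, 73308709 to 73322281), had reads in the 3 libraries needed for the test. It had 1, 0 and 3 reads in control and 1, 0 and 0 in PS_high and did not pass (adjusted p = 0.976 in edgeR, where 0.0305% of 3275 circRNAs passed).

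**Figure D4:**
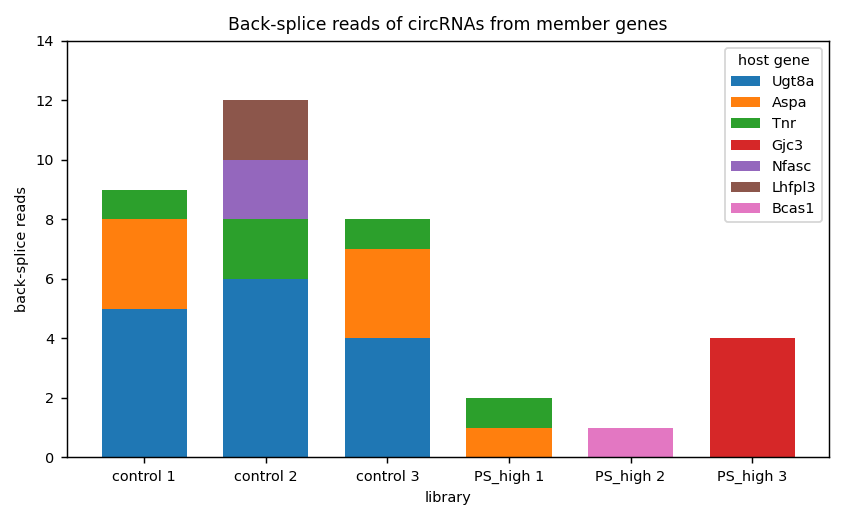
Back-splice reads of circRNAs from member genes in each library, stacked by host gene. Ugt8a gives 4 to 6 reads in every control library and none in the PS_high libraries, where the bars reach 1 to 4 reads.

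Related genes outside the set were read from the same fit. Of 40 other genes of myelinating oligodendrocytes 36 were tested, 12 with a log2 difference above 0 and 24 below (median -0.04). Myelin lipid synthesis had 3 above and 7 below (median -0.07), other precursor genes 12 above and 7 below (0.06), other lineage regulators 5 above and 11 below (-0.03) and axonal and nodal partners 3 above and 6 below (-0.06). None of these 90 genes passed, and none had an unadjusted p under 0.05 in edgeR. The lowest were Id2 (-0.74) and Hes5 (-0.63), inhibitors of differentiation, and the highest was Tcf7l2 (0.53), a Wnt effector of newly formed oligodendrocytes, followed by Apod, a lipocalin, and Elovl7, a fatty acid elongase, both at 0.40. Id2 had 52.3 CPM in control 2 and 14.6 to 20.6 CPM in the other 5 libraries.

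PS_high 1 was the lowest library for 7 of the 29 tested members (24.1%), against 24.6% of all genes. These were Gpr17, Olig1, Sox10, Mag, Cnp, Ugt8a and Fa2h. PS_high 1 was also lowest for 18 of the 36 other myelinating genes. The share was as high in other glia, with 4 of 7 astrocyte genes and 4 of 7 microglia genes. Among neuron genes it was 2 of 8, and among endothelial and mural genes 2 of 6. Control 2 was the lowest library for 9 of the 29, against 14.8% of all genes.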

How the data were processed

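Libraries were made from ribosome-depleted total RNA with a stranded kit, per the labels. HISAT2, StringTie and TopHat are named in the submitters' processing notes; no source used here gives their versions or roles, or the genome build. Of small nuclear RNA genes, 792 of 917 had the deposited position also in RefSeq GRCm38.p6. The authors deposited FPKM and an estimated count per isoform, all whole numbers. For circRNAs the authors deposited back-splice read counts, 15658 to 19957 per library, and SRPBM, a signal that divides each count by 1 library total.

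Estimated counts were summed per symbol over isoforms with class codes =, j, c, o or e, which for the members left out 23 isoforms, such as intronic ones. edgeR 4.0.16 in R 4.3.3 (quasi-likelihood test, two-sided, TMM factors, Benjamini-Hochberg over all features tested) was fitted to all genes, all isoforms and all circRNAs, the last with the totals behind SRPBM. Genes and isoforms needed a mean of 0.5 FPKM, and circRNAs reads in 3 libraries. DESeq2 1.42.0 and limma 3.58.1, on log2(FPKM + 0.1) of the deposited FPKM, were alternatives. Standard errors derive from the F statistic.

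The members, gene lists and tests were chosen with earlier results of these data known. Every member was accounted for. Libraries were given in full for 6 fixed genes, the highest and lowest of each group and those with an unadjusted p under 0.05 or no overlap. Isoforms were named by smallest p or a share difference of at least 20 points. Aspa, Ugt8a, Cnp, Opalin, C1ql1 and the isoform MSTRG.2297.8 of Tnr were added after their values were seen. Some items are not reported here.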

Additional observations from a re-analysis of the deposited data

How the results depend on the processing

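No member passed in edgeR, and none passed in 15 of 16 alternatives. The exception was Mal without control 3, so that leaving out 1 library gave 0 to 1 members. The count over all genes moved more: 5 genes passed, against 47 in DESeq2, 2 with no filter, 0 with annotated isoforms only (694 at an unadjusted p under 0.05), 0 in limma on log2(FPKM + 0.1) (585) and 0 on log2(FPKM + 1) (609), and 0 to 17 when 1 library was left out. DESeq2 called 4 of the 82 member isoforms where edgeR called 0: MSTRG.1941.1 of Nfasc, MSTRG.2297.12 of Tnr and ENSMUST00000021119 and MSTRG.6344.3 of Aspa. The share that DESeq2 called over all isoforms was not counted, so whether 4 is many for that setting is not known. No member circRNA passed in any alternative.

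Direction was kept in 223 of 238 recomputed values of the named genes and in 113 of 120 of the named isoforms. With annotated isoforms only, Tnr turned to -0.09 and Bcas1 to -0.18. In limma on log2(FPKM + 0.1) and log2(FPKM + 1) Bmp4 turned to -0.22 and -0.11 and Nfasc to 0.03 and 0.03. When 1 library was left out, the log2 difference ran from -0.24 to 0.14 for Pdgfra, -0.48 to 0.10 for Cspg4, -0.48 to 2.12 for Bcas1, -0.57 to 0.03 for Nfasc, -0.07 to 0.29 for Myrf and -0.07 to 0.08 for Mbp. It ran from -3.47 to 10.5 for MSTRG.23537.6, -0.49 to 0.72 for ENSMUST00000038475 of Fa2h and -0.57 to 0.12 for ENSMUST00000087176 of Opalin. Beyond fewer samples or isoforms, the cause was not tested.

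Samples of the same number in both groups correlated in their deviations at 0.21, 0.11 and 0.06. Samples of unlike number correlated at -0.14 to 0.05, below all of these. The main fit did not take the numbers as pairs, and whether they are pairs was not tested. With the replicate block 0 genes (650 at an unadjusted p under 0.05), 0 members and 0 member isoforms passed in edgeR, and ENSMUST00000038475 turned to -0.70.

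With 0 to 6 back-splice reads per library and host gene, smaller differences in circRNAs of members than that of Ugt8a were not detectable at this depth. The Ugt8a difference was not called either. None of the Ugt8a circRNAs had reads in the 3 libraries needed for the main edgeR test, and the gene was singled out after its values were seen.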
